A study of Homo sapiens with 9 samples.

Results

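The genes described here are 10 negative feedback inhibitors of receptor tyrosine kinase and ERK signalling: ERRFI1, PHLDA1, DUSP4, DUSP5, DUSP6, SPRY1, SPRY2, SPRY4, SPRED1 and SPRED2. They were chosen by name, with earlier results of these data known. Each was found on the array as 1 probe set annotated to that gene alone, among 18417 genes with such a probe set. The arrays were Affymetrix human gene arrays of T47D cells, an established luminal breast cancer line that expresses the progesterone receptor. All 9 cultures carried a retroviral vector (pHUSH) with a doxycycline-inducible hairpin RNA that targets ELF5, a transcription factor of the ETS family. The first group of 3 arrays received 10 nM of the progestin ORG2058 with 0.1 µg/ml doxycycline for 4 days. The second group of 3 received 10 nM ORG2058 alone for 4 days, and the third group of 3 received ethanol vehicle. No time is recorded for the vehicle group, so whether it was matched in time is not known here. The labels call ORG2058 progesterone. The labels state that cells of 3 wells were pooled for each array, and do not say whether the line is a clone. No group had doxycycline without progestin, so the effects of doxycycline itself, of the hairpin and of lower ELF5 cannot be told apart. The design asks how far ELF5 mediates the transcriptional response to progestin.

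Receptor tyrosine kinases such as those of the EGFR family activate RAS, which starts a kinase cascade from RAF through MEK to ERK. Active ERK induces genes that shut the pathway down again, and the mRNA levels of several of them are therefore used as readouts of ERK activity. The inhibitors act at different points: ERRFI1 on the receptor kinase, Sprouty and SPRED proteins between receptor and RAF, and dual-specificity phosphatases on the MAP kinases themselves. In luminal breast cancer cells, progestin signalling and growth factor signalling are known to interact at several of these steps.

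ELF5 (log2 mean 10.42 with progestin plus doxycycline, 11.28 with progestin and 10.17 with vehicle) followed the labels: the log2 change was -0.87 (SE 0.08, limma adjusted p = 0.029) with doxycycline added and 1.11 (SE 0.08, limma adjusted p = 2.06e-05) for progestin against vehicle. With doxycycline added the ELF5 change kept its size under the 18 alternatives (-0.93 to -0.83), but the call was lost under 10 of them (adjusted p of 0.0715 to 0.203): with the replicate number as a block, with only the 2 groups fitted, and without any 1 array other than vehicle replicate 3. PGR, the gene of the progesterone receptor, was at 9.96 with progestin plus doxycycline, 9.63 with progestin and 11.91 with vehicle. All 8 luminal markers listed, such as KRT8 and GATA3, had means above the median of all tested probe sets (8.57 to 13.07, against 7.23 on the log2 scale). With progestin against vehicle KRT19 rose and GATA3, ESR1 and PGR fell among the 8. The array-wise mean of the 8 was 11.33 to 11.41 with progestin plus doxycycline, 11.21 to 11.27 with progestin and 11.54 to 11.60 with vehicle. The lower mean with progestin than with vehicle came mainly from PGR (log2 change -2.28). The other luminal markers went both ways, from -0.51 (GATA3) to 0.46 (KRT19). Of 14 markers of fibroblasts, endothelium, blood and basal cells, 13 were measured. Means above the median were found for 3 of the 13: the endothelial cadherin CDH5, the collagen COL1A1 and the basal keratin KRT14. The array-wise mean of the 13 was 6.32 to 6.50 with progestin plus doxycycline, 6.49 to 6.59 with progestin and 6.34 to 6.58 with vehicle. With progestin against vehicle 3 of the 13 rose (PECAM1, CDH5 and KRT5) and 2 fell (COL1A1 and ACTA2). Over all tested probe sets limma called 13.4% higher and 15.6% lower in this comparison. The part of other cells in the results below was not tested. Array values have no true zero, and a culture-wide value cannot tell fewer expressing cells from less RNA per cell.

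The first comparison asks how progestin alters the inhibitors. After 4 days of progestin the inhibitors went in both directions. ERRFI1, DUSP4 and PHLDA1 rose, by 3.69-fold, 1.73-fold and 1.29-fold, and DUSP6, SPRED1 and SPRY4 fell, by 2.33-fold, 1.76-fold and 1.59-fold. The other 4 members, DUSP5, SPRY1, SPRY2 and SPRED2, did not pass the test. Thus 6 of 10 members were called, 3 higher and 3 lower, where 29.0% of the 21214 tested probe sets were called, 13.4% higher and 15.6% lower. A call here is an adjusted p under 0.05 from limma across all tested probe sets. Because the members were chosen with earlier results of these data known, the shares are set beside the counts as a description. The median absolute log2 change was 0.52 over the 10 members and 0.23 over all tested probe sets, and the median signed change was 0.01 and 0.02. Arrays of the 2 groups did not overlap for 8 of 10 members, 5 higher and 3 lower, against 42.3% of all probe sets, 20.8% higher and 21.5% lower.

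**Figure D1:**
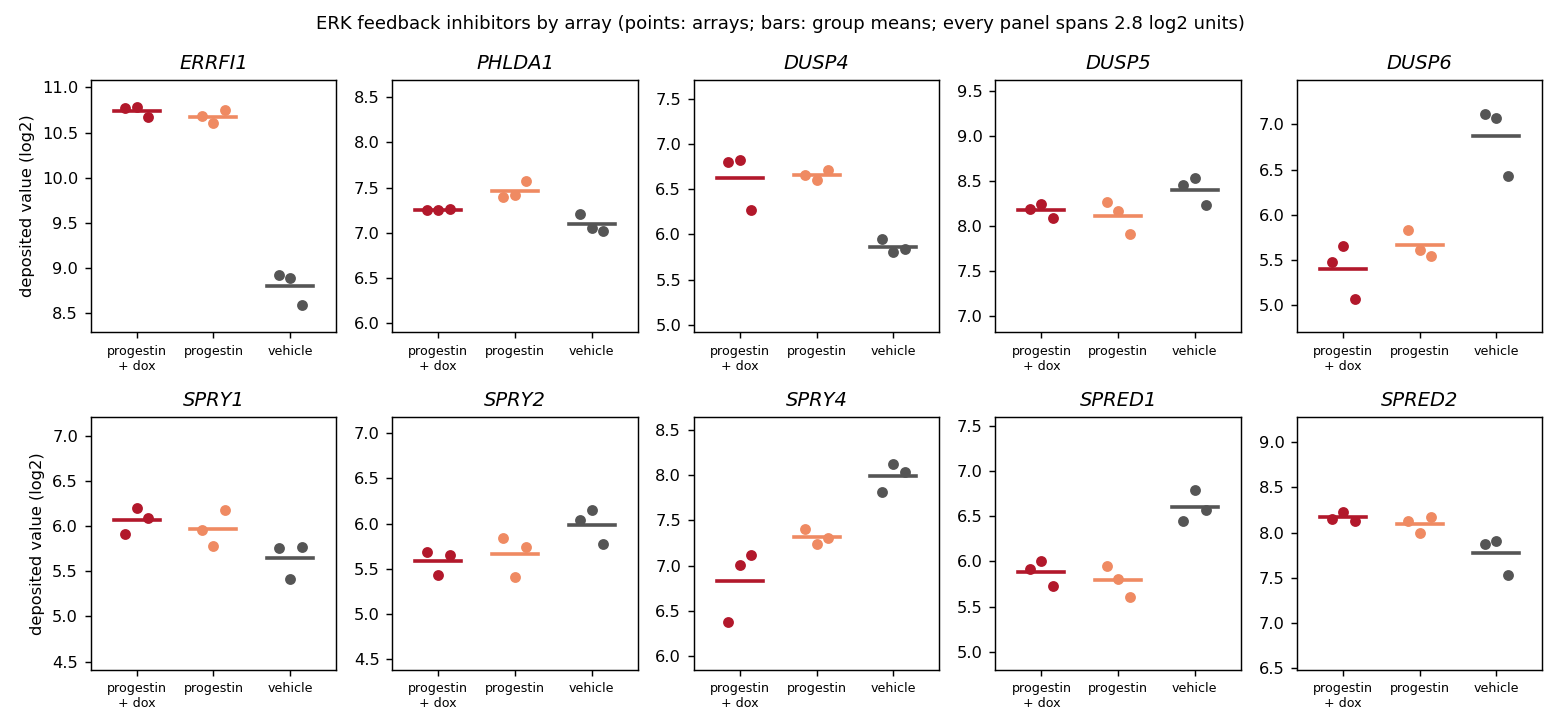
Deposited log2 values of the 10 members on each of the 9 arrays, with progestin plus doxycycline, progestin and vehicle from left to right; points are arrays, horizontal bars group means, and every panel spans the same number of log2 units. ERRFI1 has means of 10.74 and 10.68 in the progestin-treated groups, against 8.80 with vehicle, while DUSP6 lies at 5.40 and 5.66, against 6.87 with vehicle.

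ERRFI1, also known as MIG6 or RALT, binds the kinase domain of EGFR family receptors and blocks their activity, and it is a known glucocorticoid-induced gene. Its values were 10.68, 10.60 and 10.75 with progestin, against 8.92, 8.89 and 8.59 with vehicle (log2). The groups lay far apart, and the lowest progestin array stood well above the highest vehicle array. The fold was 3.69, with a 95% interval of 3.14 to 4.33 (log2 change 1.88, SE 0.10, limma adjusted p = 4.94e-06). Its p ranked 231 among the 21214 probe sets, the smallest p of any member.

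DUSP6 is a cytoplasmic phosphatase selective for ERK, and its mRNA is a widely used marker of ERK output. It was at 5.83, 5.61 and 5.54 with progestin, against 7.12, 7.07 and 6.43 with vehicle (log2). All progestin arrays were below all vehicle arrays, although vehicle replicate 3 lay apart from the other 2 vehicle arrays. DUSP6 fell 2.33-fold, with a 95% interval of 1.65 to 3.27 (log2 change -1.22, SE 0.21, limma adjusted p = 0.00328). Without vehicle replicate 3 the change was -1.44.

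The sequences just before the transcript starts of ERRFI1 and DUSP6, the members with the highest and the lowest change, and of SPRY4, the member with the largest difference when doxycycline was added, show which ETS-type and hormone-type letters are present there. Each is the 250 bases upstream of the start, read 5′ to 3′ on the gene's strand from RefSeq (GRCh38.p14), with capitals at every ETS core GGAA, or TTCC where the core is on the other strand. The windows are chr1:8026310-8026559 for ERRFI1, chr12:89352502-89352751 for DUSP6 and chr5:142324248-142324497 for SPRY4, all on the minus strand.
ERRFI1: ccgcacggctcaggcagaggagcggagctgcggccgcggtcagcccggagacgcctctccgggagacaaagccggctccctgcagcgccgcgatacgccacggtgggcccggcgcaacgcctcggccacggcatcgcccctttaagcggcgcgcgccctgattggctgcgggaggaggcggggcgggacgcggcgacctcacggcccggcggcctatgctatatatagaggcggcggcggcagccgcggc
DUSP6: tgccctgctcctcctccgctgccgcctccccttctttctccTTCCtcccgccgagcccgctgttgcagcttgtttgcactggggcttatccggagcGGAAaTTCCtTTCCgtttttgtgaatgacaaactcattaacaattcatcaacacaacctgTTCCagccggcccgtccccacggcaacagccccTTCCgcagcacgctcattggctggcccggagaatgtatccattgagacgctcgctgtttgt
SPRY4: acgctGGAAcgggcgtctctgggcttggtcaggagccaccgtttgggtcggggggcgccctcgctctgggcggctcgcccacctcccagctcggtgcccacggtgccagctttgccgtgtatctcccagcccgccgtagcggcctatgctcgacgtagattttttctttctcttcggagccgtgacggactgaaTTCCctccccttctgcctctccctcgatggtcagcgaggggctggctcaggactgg

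ERRFI1 had no GGAA in its window, DUSP6 had 6 and SPRY4 had 2. RefSeq windows were matched for 8 of the 10 members, 12 windows in all because some genes have several starts; DUSP4 and DUSP5 are only named. Both strands were searched. GGAA was in 11 of the 12 windows, against 92.7% of 35116 windows of the same length. The longer CCGGAA, which contains GGAA, was in 3 of 12 (1 each of SPRY1, SPRY2 and PHLDA1), against 14.5% of all windows. The progesterone response half-site TGTTCT was in 2 of 12, both of SPRY2, against 12.4%, and the full element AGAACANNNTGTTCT, which contains it, was in 0 of 12 and in 1 of the 35116 windows, too rare for a count over 12 windows to be informative. The AP-1 site TGANTCA, the cyclic AMP response element TGACGTCA and the CArG box were each in 0 of 12, against 6.57%, 1.65% and 1.16% of all windows. A match of letters is a description and not a measured site.

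DUSP4 and DUSP5 are nuclear phosphatases; DUSP4 acts on ERK and related MAP kinases, and DUSP5 is selective for ERK. DUSP4 was at 6.66, 6.60 and 6.71 with progestin, against 5.95, 5.81 and 5.84 with vehicle (log2). Every progestin array was above every vehicle array, and DUSP4 rose 1.73-fold, with a 95% interval of 1.38 to 2.17 (log2 change 0.79, SE 0.14, limma adjusted p = 0.00375). DUSP5 was at 8.27, 8.16 and 7.91 with progestin, against 8.45, 8.53 and 8.23 with vehicle. Its groups overlapped through vehicle replicate 3, and its change of -0.29 (SE 0.12, limma adjusted p = 0.101) was not called. It passed the threshold in 3 of 9 other ways of fitting the arrays, with an adjusted p of 0.0247 to 0.048, and without vehicle replicate 3 (0.0496).

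Sprouty proteins restrain signalling between receptors and RAF, and SPRY2 also binds the ubiquitin ligase CBL. SPRY4 was at 7.41, 7.24 and 7.31 with progestin, against 7.81, 8.12 and 8.04 with vehicle (log2). The groups did not overlap, and SPRY4 fell 1.59-fold, with a 95% interval of 1.18 to 2.14 (log2 change -0.67, SE 0.19, limma adjusted p = 0.0291). This call was lost without vehicle replicate 2 or 3, or without any 1 of the 3 progestin arrays, with an adjusted p of up to 0.0923 and a change of -0.71 to -0.60. SPRY2 was at 5.84, 5.41 and 5.74 with progestin, against 6.04, 6.15 and 5.77 with vehicle, with overlapping groups and a change of -0.32 (95% interval -0.65 to 0.01, limma adjusted p = 0.14). SPRY1 was at 5.96, 5.78 and 6.18 with progestin, against 5.76, 5.42 and 5.77 with vehicle. Its groups were apart by a narrow margin, and its change of 0.32 (95% interval 0.00 to 0.64, limma adjusted p = 0.13) was not called.

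SPRED proteins are membrane-bound relatives of Sprouty, and SPRED1 recruits neurofibromin, the product of NF1, to switch RAS off. SPRED1 was at 5.95, 5.81 and 5.61 with progestin, against 6.45, 6.79 and 6.57 with vehicle (log2). No array of one group entered the range of the other, and SPRED1 fell 1.76-fold, with a 95% interval of 1.44 to 2.15 (log2 change -0.82, SE 0.13, limma adjusted p = 0.00167). SPRED2 was at 8.13, 8.0 and 8.17 with progestin, against 7.87, 7.91 and 7.53 with vehicle. The groups were apart in the opposite direction from SPRED1, but the change of 0.33 (SE 0.11, limma adjusted p = 0.055) was not called. It passed the threshold in 5 of 9 other ways of fitting the arrays, with an adjusted p of 0.0155 to 0.0394, and without vehicle replicate 2 (0.0477).

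PHLDA1 encodes a protein with a pleckstrin homology-like domain, and its expression is induced by growth factors through ERK. It was at 7.39, 7.42 and 7.57 with progestin, against 7.21, 7.05 and 7.02 with vehicle (log2). All progestin arrays were higher, by a small amount against a small spread: the fold was 1.29, with a 95% interval of 1.13 to 1.46 (log2 change 0.36, SE 0.08, limma adjusted p = 0.01). The pooled within-group SD of PHLDA1 was 0.0817, the lowest of the 10, and that of DUSP6 was 0.295, the highest, against a median of 0.151 over all tested probe sets. With 3 arrays against 3, an exact permutation test of a single gene cannot give a two-sided p under 0.1, and it gave 0.1 for each of the 8 members whose groups were apart and 0.2 for DUSP5 and SPRY2.

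The comparison of progestin plus doxycycline with progestin alone asks what changes when ELF5 mRNA is reduced under progestin. No inhibitor passed the test here, and the largest change was that of SPRY4, at -0.49 on the log2 scale. By limma 0 of 10 members were called, against 0.0189% of all tested probe sets, and adjusted p values were 0.309 to 0.965. An unadjusted p under 0.05 was found for 2 of the 10, SPRY4 and PHLDA1, against 14.0% of all probe sets. The same 2 were the members whose groups did not overlap, both lower with doxycycline, against 21.2% of all probe sets (6.43% lower). The median change of the members was 0.02 and that of all tested probe sets 0.03, and the median absolute changes were 0.08 and 0.13 (log2).

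SPRY4 was at 6.37, 7.01 and 7.12 with progestin plus doxycycline, against 7.41, 7.24 and 7.31 with progestin (log2). Replicate 1 with doxycycline lay well below the other 2, and all 3 lay below the progestin arrays. The change was -0.49 (95% interval -0.92 to -0.05, limma adjusted p = 0.313), and it was -0.25 without progestin plus doxycycline replicate 1. PHLDA1 was at 7.25, 7.25 and 7.26 with progestin plus doxycycline, against 7.39, 7.42 and 7.57 with progestin. The doxycycline arrays were close together and below all progestin arrays, with a change of -0.21 (95% interval -0.39 to -0.02, limma adjusted p = 0.309).

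ERRFI1 was at 10.77, 10.78 and 10.67 with progestin plus doxycycline, against 10.68, 10.60 and 10.75 with progestin (log2). These groups overlapped, and the 95% interval of the change was -0.17 to 0.29, so a difference of more than 1.22-fold upward or 1.13-fold downward lay outside it. DUSP6 was at 5.48, 5.65 and 5.07 with progestin plus doxycycline and overlapped the progestin arrays, with a wider interval of -0.75 to 0.23. DUSP4 was at 6.80, 6.82 and 6.27 with doxycycline added, where replicate 3 fell below all progestin arrays and the other 2 lay above them (interval -0.35 to 0.30). SPRED1 (5.92, 6.0 and 5.73) and SPRED2 (8.15, 8.23 and 8.13) overlapped their progestin values, with changes of 0.09 and 0.07. DUSP5, SPRY1 and SPRY2 likewise overlapped, with changes of 0.06, 0.09 and -0.07. A p that misses the threshold does not show equal levels, and the intervals give the range of change that these arrays allow.

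**Figure D2:**
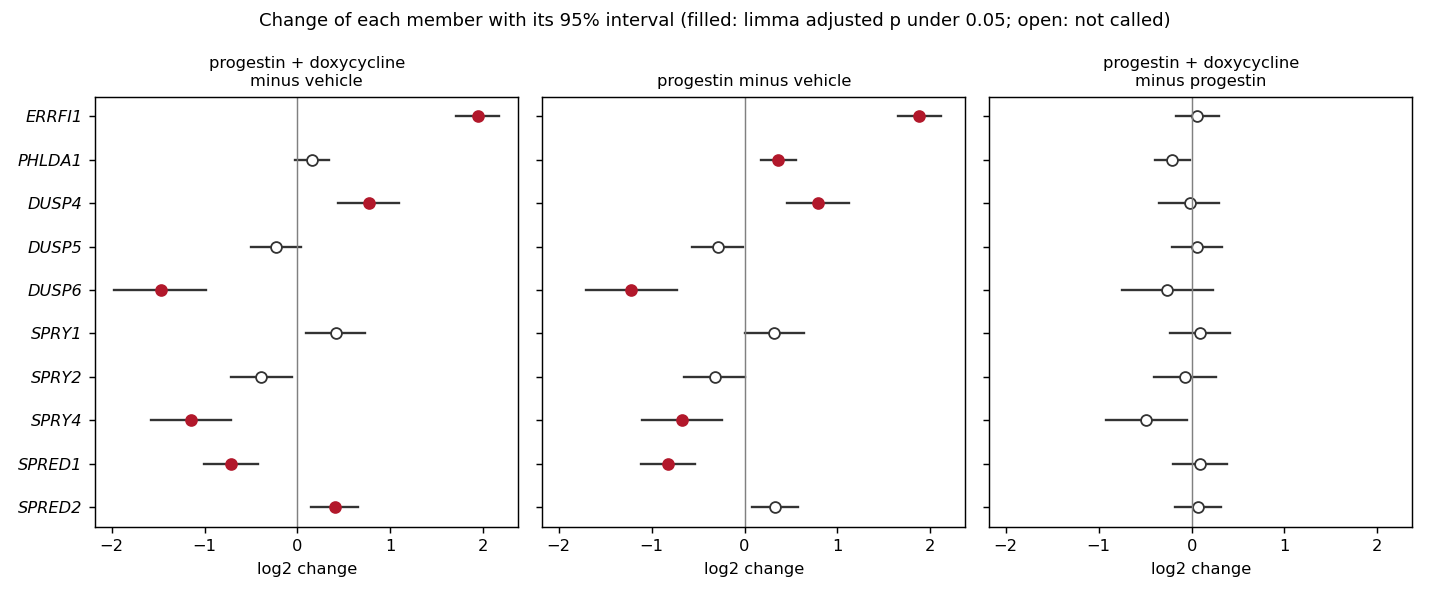
Log2 change of each of the 10 members with its 95% interval in 3 comparisons, from left to right progestin plus doxycycline minus vehicle, progestin minus vehicle, and progestin plus doxycycline minus progestin; filled points have a limma adjusted p under 0.05. The changes against vehicle run from -1.47 for DUSP6 to 1.94 for ERRFI1, while all 10 points of the right panel lie between -0.49 and 0.09.

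In cells with the hairpin induced, 6 of 10 members again differed from vehicle, against 28.1% of all tested probe sets. ERRFI1 rose 3.84-fold (log2 change 1.94, SE 0.10, limma adjusted p = 3.81e-06), DUSP4 rose 1.70-fold and SPRED2 rose 1.32-fold, 3 of 10 where 15.6% of all probe sets were higher. DUSP6 fell 2.78-fold, SPRY4 fell 2.22-fold and SPRED1 fell 1.65-fold, 3 of 10 where 12.5% were lower. These comparisons share the vehicle arrays with the comparison of progestin alone, so the values are set side by side and are not independent. The log2 changes against vehicle were 1.94 with doxycycline and 1.88 without for ERRFI1, 0.77 and 0.79 for DUSP4, and -0.72 and -0.82 for SPRED1. For DUSP6 they were -1.47 and -1.22, and for SPRY4 -1.15 and -0.67.

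PHLDA1 was called with progestin alone (0.36) and not with doxycycline added (0.16, SE 0.08, limma adjusted p = 0.207), and SPRED2 was called with doxycycline (0.40, SE 0.11, limma adjusted p = 0.0268) and not with progestin alone (0.33). Neither gene is shown to differ between the treated groups, since the direct tests gave adjusted p values of 0.309 and 0.836. The SPRED2 call against vehicle was lost without any 1 of the 3 progestin plus doxycycline arrays (adjusted p of 0.0584 to 0.0831) and with only the 2 groups fitted (0.0526). SPRY1 (0.41, limma adjusted p = 0.0626) and SPRY2 (-0.39, limma adjusted p = 0.0788) had groups apart without being called, and DUSP5 (-0.23, limma adjusted p = 0.195) had overlapping groups.

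The other genes of the pathway were read by list beside the inhibitors. Over all tested probe sets, 13.4% were called higher and 15.6% lower with progestin against vehicle. Of 10 other dual-specificity phosphatases, 6 rose and 0 fell in this comparison, with a median log2 change of 0.45. They included DUSP1, an immediate-early phosphatase that prefers p38 and JNK and a known glucocorticoid-induced gene (1.15, SE 0.11), DUSP10 (1.04, SE 0.12) and DUSP16 (0.89, SE 0.07), which act mainly on p38 and JNK, and DUSP8 (0.86, SE 0.10), with limma adjusted p values of 4.26e-05 to 0.000362.

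Among 11 receptor tyrosine kinases 3 rose and 6 fell, against 13.4% and 15.6% of all tested probe sets, with a median of -0.22. EGFR and ERBB2, receptors of the EGFR family, both rose by 1.26 (SE 0.10 each) on the log2 scale. The other receptors of that family did not follow: ERBB4 was lower (-0.66, limma adjusted p = 0.00423) and ERBB3 was not called (0.13, limma adjusted p = 0.273). The fibroblast growth factor receptor FGFR3 fell by 1.81 (SE 0.13) and the insulin-like growth factor receptor IGF1R by 0.63 (SE 0.07). Of 9 EGFR family ligands measured, 2 rose and 0 fell, where 29.0% of all tested probe sets were called in either direction. EGF rose by 1.57 (SE 0.15), and epigen, EPGN, had a log2 change of 3.45 (SE 0.38) from a dim vehicle mean of 1.96, where the size of a log2 change is not reliable.

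In the cascade itself, of 14 adaptors, RAS, RAF, MEK and ERK genes measured, 3 rose and 1 fell, with a median of -0.03. Together this is near the 29.0% called over all tested probe sets. The RAS relative RRAS (1.00) and the adaptors GAB2 (0.74) and SHC1 (0.30) rose, and ARAF fell by 0.32. Of 17 other negative regulators measured, 1 rose and 5 fell, against 13.4% and 15.6% of all tested probe sets, with a median of -0.11. LRIG1 (-0.63) and the ubiquitin ligase CBL (-0.54), which promote receptor degradation, the RAS inactivator NF1 (-0.48) and the tyrosine phosphatase PTPN1 (-0.34) fell. The 1 that rose was CBLB, also a ubiquitin ligase (0.49, limma adjusted p = 0.0144).

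Of 28 ERK effector kinases and ERK-induced transcription factors measured, 7 rose and 5 fell, with a median of 0.05. The AP-1 subunits JUNB (1.37, SE 0.08) and FOSL2 (0.99, SE 0.08) and the kinase RPS6KA5 (1.68, SE 0.11), which phosphorylates histone H3 and CREB, rose, and the cyclin CCND1 fell by 0.75 (SE 0.07). ETV4, an ETS factor whose transcription is known to follow ERK activity, fell by 1.18 (SE 0.22, limma adjusted p = 0.00474), and it is named here after its values were seen. The other ETV genes of the list, ETV1 (-0.53, limma adjusted p = 0.203) and ETV5 (-0.39, limma adjusted p = 0.287), were not called. Their vehicle means were dim, at 4.26 and 4.53. The immediate-early factors EGR1 (-0.04) and FOS (-0.21), also named after their values were seen, were not called. The remaining called genes of the list went both ways. RPS6KA2 (1.43), JUN (1.01), ATF3 (0.60) and MKNK2 (0.42) rose, and KLF10 (-0.64), IER3 (-0.54) and RPS6KA1 (-0.36) fell. Over all tested probe sets 13.4% were called higher and 15.6% lower in this comparison.

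**Figure D3:**
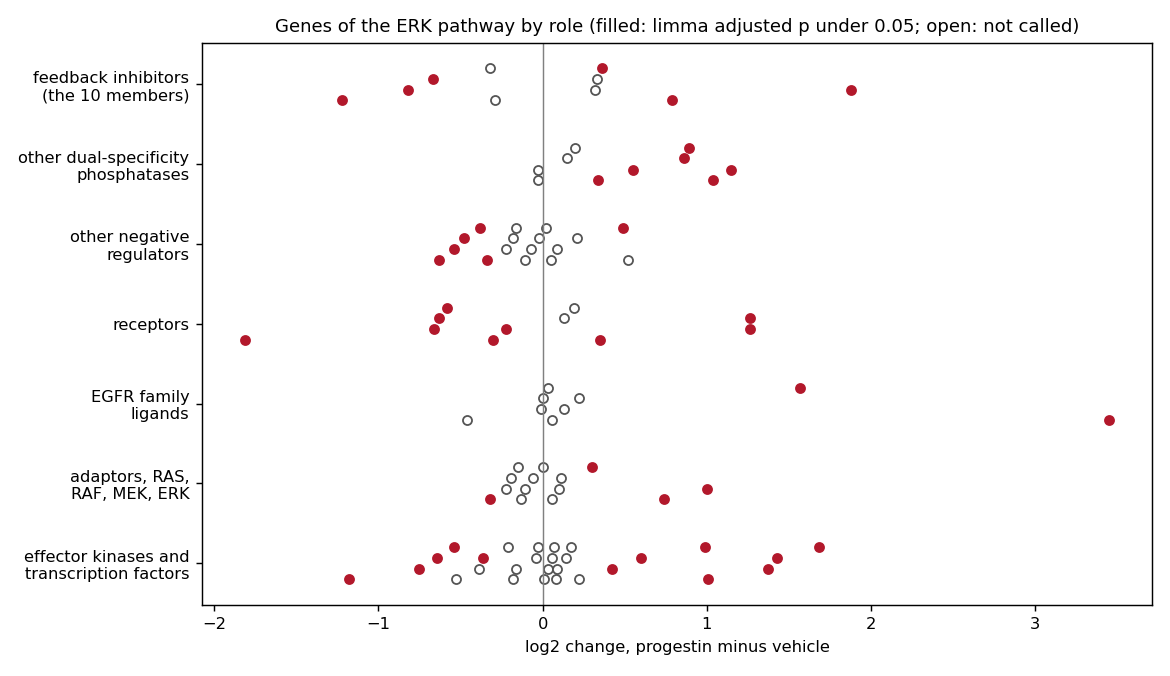
Log2 change with progestin against vehicle for each measured gene of the pathway, grouped by role from top to bottom; each point is 1 gene, filled where the limma adjusted p is under 0.05. The inhibitors at the top lie on both sides of 0, from -1.22 to 1.88, and the 6 filled points of the other dual-specificity phosphatases all lie above 0.

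With doxycycline added to progestin, 0 genes of these 6 lists were called by limma, against 0.0189% of all tested probe sets. So few calls over all probe sets leave the 0 uninformative about these lists. The smallest p values of each list belonged to genes with changes between -0.42 (FOSB) and 0.62 (EPGN), among them EGFR (0.48, SE 0.10, limma adjusted p = 0.122), NF1 (0.43, SE 0.09, limma adjusted p = 0.132) and the RAS activator SOS1 (0.33, SE 0.08, limma adjusted p = 0.164).

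For the 6 members called with progestin against vehicle, the genes whose 9 values followed each most closely were read off as a description. Pearson's r over the 9 arrays was highest for ERRFI1 with PXYLP1 (0.9996), BCL2L1 (0.9992), an anti-apoptotic gene, and PRR15L (0.9989). For DUSP6 it was highest with PRDX3 and TPST1 (0.9915 each) and ALDH18A1 (0.9908). For DUSP4 it was highest with SEPHS2 (0.9778), for SPRED1 with TRMT112 (0.9846), for PHLDA1 with ATP2A3 (0.9631) and for SPRY4 with PYCARD (0.9599). The 9208 genes with a mean above the median were searched. The points of each pair come from the same 9 arrays in 3 treatment groups, and correlations within groups were not computed.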

How the data were processed

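RNA of T47D cells was measured on 9 Affymetrix HuGene 1.0 ST arrays, 3 per group, grouped by their titles. The authors deposited 1 log2 value per probe set and array. Per the submitters' processing notes, limma, PLIER, Affymetrix Expression Console and Affymetrix Power Tools were involved, in roles and versions not given; the background correction, the normalization and the genome build are likewise not given in these sources. The log2 scale was inferred from the range of the values. Array medians were 7.19 to 7.28.

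Of 33297 probe sets, 21214 had a gene symbol in the platform annotation and entered the test; gene names come from the 19460 with a single symbol. The highest-mean probe set stood for a gene. limma 3.58.1 (R 4.3.3) was fitted with 1 mean per group over all 9 arrays, with eBayes and Benjamini-Hochberg adjustment over all tested probe sets at 0.05. The fit was also run on simulated data with independent noise and far fewer changed probe sets than were called here. That run does not test the fit under the conditions of these data. The design text speaks of independent experiments; the p-values reflect only the variation among the arrays, whose number limits the precision. No batch is given in the labels, and a batch that coincides with a group cannot be told apart from it. No detection calls were used.

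All 10 members are named, with ELF5 and PGR as fixed names. Of each other list up to 4 called genes with the smallest p were named, or 2 where none was called. ETV1, ETV4, ETV5, EGR1 and FOS are exceptions. So are, with progestin against vehicle, ERBB3, ERBB4, CBLB, RPS6KA2, JUN, ATF3, MKNK2, IER3, RPS6KA1 and KLF10, also named after their values were seen. For each member called with progestin against vehicle the 3 genes with the highest correlation were computed. The members and lists were chosen with earlier results of these data known. The alternatives were a replicate block, 16 added to the linear values, quantile normalization, leaving out the dimmest 25%, a variance trend with robust estimation, array weights, only the 2 groups compared, the mean of a gene's probe sets, an F test first, and leaving out each array.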

Additional observations from a re-analysis of the deposited data

How the results depend on the processing

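The count of called members was 0 with doxycycline added to progestin under all 18 alternatives, and with 1 array left out it was 5 to 6 for progestin against vehicle and 5 to 7 for progestin plus doxycycline against vehicle. Under the other 9 settings the count, 6 in both comparisons with vehicle, was 6 to 9 for progestin and 5 to 8 for progestin plus doxycycline. For progestin it was 9 with array weights and 8 with robust estimation and a variance trend. Over all 21214 probe sets 9502 and 6959 were then called, against 6161. For progestin plus doxycycline it was 8 without the dimmest 25% and with array weights. Over all probe sets 6264 of 15910 and 8793 of 21214 were then called, against 5953 of 21214. The higher member counts thus came with more calls over all probe sets. Of the 540 single-gene values under the alternatives, 504 kept their direction and their side of the threshold. Some of these could not change direction, so the tally is not a measure of robustness. Each member had 1 probe set, so averaging probe sets kept its change, and the F test used the same changes. Leaving out a vehicle array cannot alter a change with doxycycline added to progestin. Changes of sign occurred for 5 members, all with doxycycline added to progestin and all uncalled: ERRFI1 was at -0.01 with quantile normalization, and with array weights DUSP4 was at 0.01 and DUSP5 at -0.01. With 1 array left out the changes of DUSP4 were -0.12 to 0.16, of DUSP5 -0.04 to 0.14, of SPRY1 0.00 to 0.19 and of SPRY2 -0.20 to 0.02. The count over all probe sets with doxycycline added was 4, against 0 with the replicate block, 15 with 16 added to the linear values, 158 without the dimmest 25%, 8 with array weights, 530 with robust estimation and a variance trend, 0 with only the 2 groups compared, 1067 with the F test first and 0 to 2 with 1 array left out. The count for progestin against vehicle was 6161, and 9502 with array weights. The cause of these moves was not tested. The deviations of same-numbered arrays correlated above 0.1 in 3 of 9 pairs (-0.262 to 0.48). Those of different-numbered arrays did so in 7 of 18 pairs (-0.507 to 0.284). The highest values, 0.48 and 0.464, were between progestin plus doxycycline and vehicle, for replicates 2 and 3. Whether replicate numbers pair the arrays of these groups is therefore not settled. The replicate block changed 2 calls of members. DUSP5 was then called for progestin against vehicle (limma adjusted p = 0.048), and SPRED2 was not for progestin plus doxycycline against vehicle (limma adjusted p = 0.0547). Signal over background was not measured here; the means of DUSP4, DUSP6, SPRY1, SPRY2 and SPRED1 lay below the median of all tested probe sets.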

Other observations

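In cells given progestin plus doxycycline, the pathway outside the inhibitors was compared with vehicle as well. Of 10 other dual-specificity phosphatases 6 rose and 0 fell, with DUSP1 at a log2 change of 1.34 (SE 0.11) and DUSP16 at 1.07 (SE 0.07). Of 11 receptor tyrosine kinases 5 rose and 5 fell, with EGFR at 1.74 (SE 0.10) and FGFR3 at -1.98 (SE 0.13). Of 9 EGFR family ligands 3 rose and 1 fell: EGF (1.67), EPGN (4.06, from a dim vehicle mean) and NRG4 (0.47) rose, and EREG fell by 0.62. Among 14 adaptor and cascade genes 5 rose and 2 fell, with RRAS at 1.02 and SOS1 at 0.33. Of 17 other negative regulators 1 rose and 3 fell, and the 1 that rose was the ubiquitin ligase CBLB (1.00, SE 0.12). Effector kinases and transcription factors rose in 8 and fell in 5 of 28 cases. All these calls are from limma over all tested probe sets, of which 15.6% were higher and 12.5% lower.

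Vehicle replicate 3 was the lowest of its group for 6 of the 10 members and lay below the group mean for 8. Progestin replicate 2 was likewise the lowest of its group for 6 and below the mean for 8, and progestin plus doxycycline replicate 3 was the lowest for 6. Such tallies were not made over all probe sets, so they cannot tell a trait of the members from one of the arrays.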
